A study of Mus musculus with 15 samples.

Results

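MHC class I molecules carry peptides from inside the cell to its surface, where CD8 T cells and NK cells read them, and the genes of that route were followed here in the spleens of irradiated mice. They were chosen by name as the class I heavy chains H2-K1 and H2-D1, the light chain B2m, the peptide transporter subunits Tap1 and Tap2, the loading chaperone Tapbp and the immunoproteasome subunits Psmb8, Psmb9 and Psmb10. Of these 9 genes, B2m, H2-K1, Tap1, Tapbp, Psmb9 and Psmb10 were among the 561 genes of the count table, and H2-D1, Tap2 and Psmb8 are not analysed here. All 6 passed the filter of a mean of at least 20 counts that left 426 genes to test.

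In a cell, the proteasome cuts proteins into peptides, and in immune cells and under interferon its catalytic subunits are replaced by those of the immunoproteasome, whose cuts give peptides that class I molecules bind well. TAP pumps the peptides into the endoplasmic reticulum, tapasin (Tapbp) holds the empty class I molecule beside it, and the heavy chain leaves for the surface only once it is paired with beta-2 microglobulin and a peptide. The spleen, rich in B and T cells, is an organ in which nearly every nucleated cell carries class I, while class II is largely kept to B cells, dendritic cells and macrophages.

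The 15 spleen samples were measured with the Mouse Immunology Panel of the nCounter platform, which hybridises mRNA to colour-coded probes and counts the barcodes one by one without amplification. The mice were young adult female C57BL/6J animals, and each of the 5 groups held 3 samples. Sham mice had no injury, WBIR mice had 9 Gy of whole-body ionising radiation from a caesium source, and RCI mice had the same 9 Gy together with a full-thickness contact burn of 20% of the body surface. WBIR+MSC-EVs and RCI+MSC-EVs mice received, by vein and 72 hours after the same injuries, extracellular vesicles (EVs) shed by cultured mesenchymal stem cells (MSC), and their spleens were taken 48 hours later. All 12 injured samples thus share the radiation, no sample had a burn alone and no Sham sample had EVs, so a burn was measured only on top of radiation. In the paper the burn came with avertin anaesthesia, shaving, morphine, Lactated Ringer's solution and morphine in the drinking water. Its procedure for radiation alone does not describe these, so between RCI and WBIR groups they cannot be told apart from the burn. Sham groups of its burn model had the procedure without burn or radiation. For mice without EVs, Sham included, the paper describes an injection of saline alone at the same 72 hours, with spleens taken 48 hours later. The labels name PBS for RCI mice. Red blood cells were lysed before RNA was taken.

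Total counts ranged from 90127 to 598872 per sample. Sham replicate 2 stood apart, with a geometric mean of its 14 reference genes of 367 against 1086 and 1171 in the other Sham samples, and so did RCI replicate 3, with 1545. Counts below are scaled to these 14 reference genes, and log2 fold changes (log2FC, with their standard errors, SE) are from the quasi-likelihood fit of edgeR, with p-values adjusted by Benjamini-Hochberg over the 426 genes and called under 0.05. The reference genes themselves moved unequally, in WBIR against Sham from -1.70 (Polr1b) to 2.83 (G6pdx) on the log2 scale relative to their mean, so results are also given under TMM scaling, which is set by the tested genes and raised the median log2FC of all genes by 0.71 in WBIR, 0.54 in RCI, 0.56 in WBIR+MSC-EVs and 0.37 in RCI+MSC-EVs against Sham. The labels do not say whether the 3 samples of a group are separate mice, and p-values then measure only the spread between these samples, which may be technical. In bulk spleen RNA, fewer cells of a type and less RNA per cell cannot be told apart.

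Of the 6 genes, 4 lie in the MHC region of chromosome 17 in the RefSeq annotation of assembly GRCm38.p6, with H2-K1 at chr17:33996012-34000619, Tap1 at chr17:34187556-34197225, Psmb9 at chr17:34182030-34187330 and Tapbp at chr17:33919478-33929290. B2m lies at chr2:122147687-122153082 and Psmb10 at chr8:105935728-105938392. Tap1 and Psmb9 run in opposite directions from starts that are separated by only 225 bases, which is why that stretch is shown (chr17:34187331-34187555, plus strand, with Psmb9 to the left and Tap1 to the right). Capitals mark, from left to right, a CCAAT box, a GC box (GGGCGG, here on the other strand) and a TGACG element.
Psmb9 to Tap1: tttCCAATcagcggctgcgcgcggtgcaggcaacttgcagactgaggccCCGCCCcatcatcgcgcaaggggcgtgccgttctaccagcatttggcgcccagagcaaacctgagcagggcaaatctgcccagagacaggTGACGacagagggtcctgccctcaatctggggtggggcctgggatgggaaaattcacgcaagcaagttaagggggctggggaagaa
B2m is shown because its counts did not pass the test while those of its partner H2-K1 fell, with the 150 bases before its start (chr2:122147537-122147686, plus strand). Its capitals mark an interferon regulatory factor (IRF) core of the form AANNGAAA, a TGACG element and a CCAAT box on the other strand.
B2m upstream: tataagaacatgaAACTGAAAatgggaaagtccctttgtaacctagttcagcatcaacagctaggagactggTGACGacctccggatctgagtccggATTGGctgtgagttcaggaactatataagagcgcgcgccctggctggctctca
For H2-K1, which has 2 RefSeq promoter windows, 30 bases ahead of the transcript start of the first are shown (chr17:34000430-34000459, minus strand). The stretch lies inside the gene span given above, because that transcript start does too, and its NF-kB motif is at -111 from that start. The capitals mark first a palindromic NF-kB motif, the one searched for below, and then an IRF core on the other strand, which are the classical elements of class I heavy chain promoters.
H2-K1 upstream: tGGGGATTCCCCatctccacagTTTCACTT
Both strands of 32851 RefSeq promoter windows of 300 bases (250 before and 50 after each start) were searched, and all 6 genes had a window. For NF-kB, only the exact letters of the palindrome marked in H2-K1 were searched, so other forms of the site were not counted. That palindrome was in 0.0304% of the windows, 10 windows, and among the 6 genes it was in that of H2-K1. This is not the share of promoters with any NF-kB site, and genes without a match, such as B2m, may hold another form. The IRF core was in 23.9% of all windows and in those of B2m and H2-K1, the GC box in 35.7% and in those of Tap1, Psmb9 and Tapbp, the CCAAT box in 37.4% and in all but that of Psmb10, and TGACG in 20.8% and in those of B2m, H2-K1, Tap1 and Psmb9. These are matches of letters and not measured sites.

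To determine whether radiation, alone or with a burn, altered the class I route as a whole, each injured group was compared with Sham. H2-K1 and Tap1 fell in all 4 comparisons, Psmb10 rose in WBIR and WBIR+MSC-EVs, and B2m, Tapbp and Psmb9 did not pass the test in any. In WBIR, 3 of the 6 genes were called, against 68.5% of all 426 genes tested (21.6% higher and 46.9% lower). In RCI, 2 of 6 were called, against 69.5% (26.5% higher and 43% lower). WBIR+MSC-EVs gave 3 of 6 against 67.8% (22.8% higher and 45.1% lower), and RCI+MSC-EVs gave 2 of 6 against 65.3% (23.9% higher and 41.3% lower). The 4 comparisons share their Sham samples, and with only 6 genes these shares are not read as different from those of the panel. The median log2FC of the 6 genes was -0.28 in WBIR, -0.32 in RCI, -0.40 in WBIR+MSC-EVs and -0.21 in RCI+MSC-EVs, beside -0.74, -0.53, -0.61 and -0.45 over all genes. Under TMM scaling 4, 3, 3 and 3 of the 6 were called in the same order, where 66.9%, 70.4%, 65.5% and 67.1% of all genes were.

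**Figure D1:**
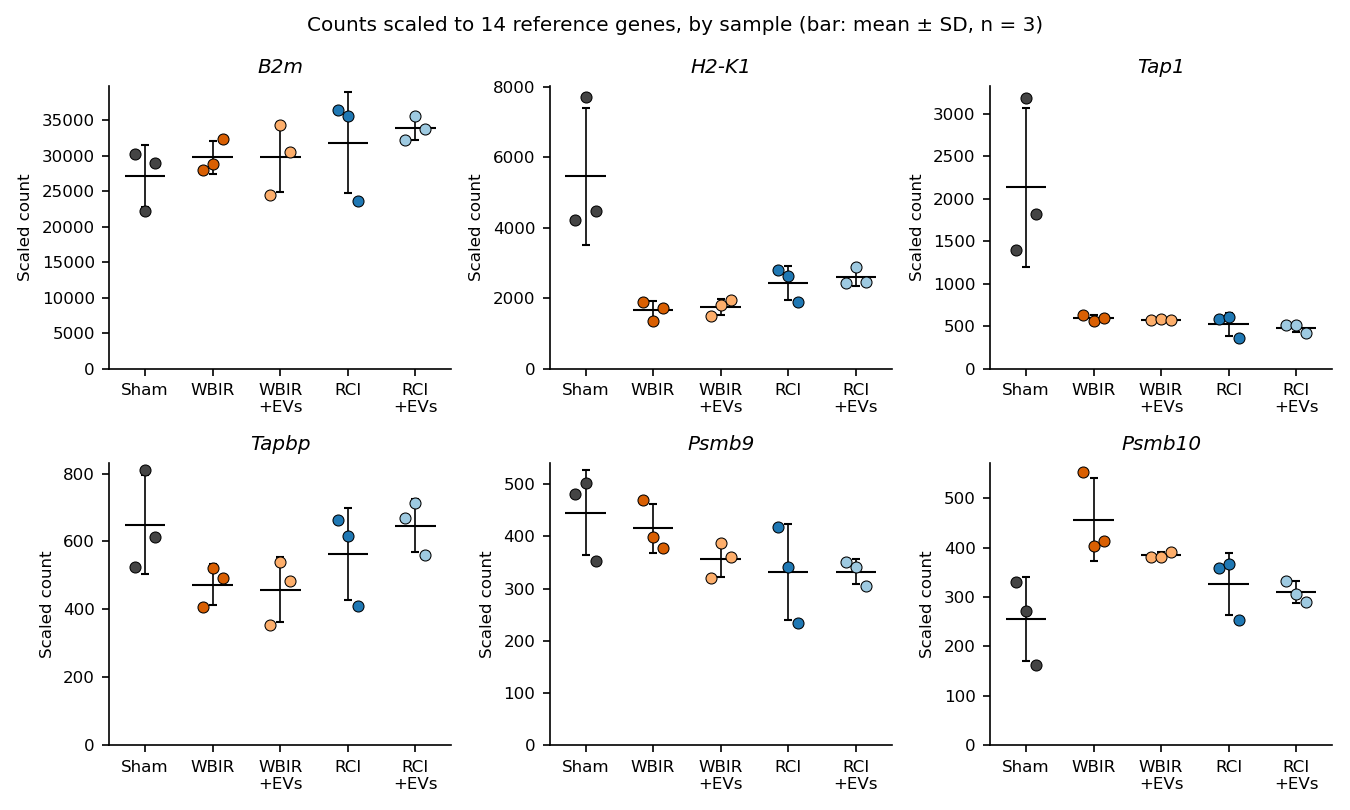
Counts of the 6 genes scaled to the 14 reference genes (vertical axis, linear) in each of the 15 samples, by group, with the mean and SD of each group of 3. For H2-K1 and Tap1 each injured sample lies below each Sham sample, while for B2m, Tapbp and Psmb9 most injured groups overlap Sham. RCI+MSC-EVs lies above Sham for B2m and just below it for Psmb9, and WBIR lies just below it for Tapbp.

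H2-K1 encodes the K heavy chain, the part of the class I molecule that binds the peptide. Its scaled counts were 4221, 7709 and 4463 in Sham, 1877, 1349 and 1730.3 in WBIR, 1497, 1801 and 1942 in WBIR+MSC-EVs, 2798, 2629 and 1891 in RCI, and 2441, 2892 and 2458 in RCI+MSC-EVs. All 12 injured samples were below the lowest Sham sample, and 5 of the 6 burned samples were above all 6 injured samples without a burn, the exception being RCI replicate 3. The means were 5465 ± 1948 (SD, n = 3) in Sham, 1652 ± 273 (SD, n = 3) in WBIR and 2439 ± 482 (SD, n = 3) in RCI. By edgeR the log2FC against Sham was -1.73 ± 0.28 (adjusted p = 8.57e-05) in WBIR, -1.16 ± 0.27 (adjusted p = 0.00159) in RCI, -1.64 ± 0.28 (adjusted p = 0.000132) in WBIR+MSC-EVs and -1.07 ± 0.27 (adjusted p = 0.00312) in RCI+MSC-EVs. Under TMM scaling the fall was smaller and still called, at -1.03 in WBIR and -0.65 in RCI. Heavy chain genes are close relatives of each other, RefSeq lists H2-K1 and H2-D1 under each other's synonyms, and cross-hybridisation was not assessed, so the H2-K1 counts may include other heavy chains.

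B2m encodes beta-2 microglobulin, the light chain shared by all classical class I molecules and by several class I-like proteins. Its scaled counts were 30225, 22211 and 28944 in Sham, 27986, 28847 and 32389.6 in WBIR, 24511, 34305 and 30501 in WBIR+MSC-EVs, 36369, 35515 and 23589 in RCI, and 32262, 35615 and 33729.6 in RCI+MSC-EVs. Scaled to the reference genes, WBIR, WBIR+MSC-EVs and RCI overlapped Sham, while all 3 RCI+MSC-EVs samples were above the highest Sham sample. Sham replicate 2 and RCI replicate 3 were the lowest of all 15. The log2FC against Sham was 0.13 in WBIR (95% interval -0.44 to 0.70), 0.23 in RCI (-0.34 to 0.80), 0.13 in WBIR+MSC-EVs (-0.44 to 0.71) and 0.32 in RCI+MSC-EVs (-0.25 to 0.89). None passed the edgeR test, with adjusted p-values from 0.298 to 0.679, and none passed under TMM scaling, where the values ran from 0.59 to 0.70. The intervals under reference gene scaling allow a rise or fall of modest size. Under TMM scaling the interval in WBIR ran from 0.01 to 1.40 (edgeR unadjusted p = 0.0471), and those of the other groups included 0. There the highest Sham sample was at 26451, below the lowest of WBIR (32645), RCI (29802.5) and RCI+MSC-EVs (30419), while WBIR+MSC-EVs overlapped Sham. A level equal to Sham was thus not shown.

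Tap1 encodes one of the subunits of the TAP peptide pump. Its scaled counts were 1393, 3183 and 1823 in Sham, 626, 560.5 and 590.3 in WBIR, 575, 582 and 573 in WBIR+MSC-EVs, 584, 608 and 365 in RCI, and 507, 513 and 418 in RCI+MSC-EVs. Each injured sample was below the lowest Sham sample, and the Sham samples were themselves spread from 1393 to 3183. The mean was 2133 ± 935 (SD, n = 3) in Sham against 592 ± 32.9 (SD, n = 3) in WBIR and 519 ± 134 (SD, n = 3) in RCI. By edgeR the log2FC was -1.85 ± 0.29 (adjusted p = 6.67e-05) in WBIR, -2.04 ± 0.29 (adjusted p = 2.93e-05) in RCI, -1.88 ± 0.29 (adjusted p = 6.05e-05) in WBIR+MSC-EVs and -2.15 ± 0.29 (adjusted p = 2.19e-05) in RCI+MSC-EVs. This was the largest fall among the 6 genes in each comparison, and under TMM scaling it was -1.13, -1.52, -1.28 and -1.75 in the same order, called each time. Without Sham replicate 2, the highest Sham sample for both genes, Tap1 was at -1.44 in WBIR and -1.63 in RCI, and H2-K1 at -1.39 and -0.83, and all 4 falls stayed called.

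Tapbp encodes tapasin, which bridges TAP and the empty class I molecule. Its scaled counts were 525, 810.0 and 612 in Sham, 406, 522 and 492 in WBIR, 352, 539.6 and 483 in WBIR+MSC-EVs, 664, 616 and 409 in RCI, and 669.9, 712 and 559 in RCI+MSC-EVs. Tapbp overlapped between Sham and each injured group except WBIR, whose highest sample (521.6) was just below the lowest Sham sample (524.9). The log2FC by edgeR was -0.45 ± 0.24 (adjusted p = 0.111) in WBIR and -0.20 ± 0.24 (adjusted p = 0.456) in RCI. By edgeR it was -0.49 ± 0.24 (adjusted p = 0.0852) in WBIR+MSC-EVs and -0.00 ± 0.24 (adjusted p = 0.997) in RCI+MSC-EVs. Its sign turned under TMM scaling, to 0.21, 0.26, 0.06 and 0.34, so Tapbp has no settled direction here. In WBIR+MSC-EVs it was called lower by edgeR without Sham replicate 1, at -0.62, and without RCI replicate 3, at -0.49.

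Psmb9 (LMP2) and Psmb10 (MECL-1) encode inducible catalytic subunits of the immunoproteasome. The scaled counts of Psmb9 were 481, 503 and 353 in Sham, 469, 398 and 378 in WBIR, 320.0, 388 and 359.9 in WBIR+MSC-EVs, 418, 341 and 235 in RCI, and 351, 342 and 305 in RCI+MSC-EVs. Psmb9 overlapped between Sham and each injured group except RCI+MSC-EVs, whose highest sample (350.6) was just below the lowest Sham sample (352.6). Its log2FC was -0.10 in WBIR, -0.43 in RCI, -0.32 in WBIR+MSC-EVs and -0.42 in RCI+MSC-EVs, with edgeR adjusted p-values from 0.105 to 0.697. Its direction depended on the scaling: by edgeR under TMM it was 0.53 in WBIR (adjusted p = 0.0261, called), 0.01 in RCI, 0.21 in WBIR+MSC-EVs and -0.10 in RCI+MSC-EVs, whereas scaled to the 7 steadiest reference genes it was -0.64 in RCI (adjusted p = 0.0299, called). It was also called lower by edgeR in RCI without RCI replicate 1, at -0.63, and without Sham replicate 3, at -0.57, and in RCI+MSC-EVs without Sham replicate 3, at -0.56.

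The scaled counts of Psmb10 were 330.3, 272 and 162 in Sham, 553, 404 and 413 in WBIR, 381, 380.5 and 391 in WBIR+MSC-EVs, 358, 366 and 253 in RCI, and 333, 307 and 289.9 in RCI+MSC-EVs. All 3 WBIR samples and all 3 WBIR+MSC-EVs samples were above all Sham samples, whereas RCI and RCI+MSC-EVs overlapped Sham. By edgeR the log2FC was 0.84 ± 0.25 (adjusted p = 0.00833) in WBIR and 0.60 ± 0.25 (adjusted p = 0.0493) in WBIR+MSC-EVs, both called, against 0.36 ± 0.25 (adjusted p = 0.22) in RCI and 0.29 ± 0.25 (adjusted p = 0.325) in RCI+MSC-EVs, which were not. The call in WBIR+MSC-EVs lay at the threshold. By edgeR it was lost when any 1 of 13 of the 15 samples was left out, most clearly without Sham replicate 3, the lowest Psmb10 sample, where the log2FC was 0.35 (adjusted p = 0.18), and in WBIR the log2FC without that sample was 0.59 (adjusted p = 0.0306). Under TMM scaling Psmb10 was called higher in all 4 comparisons, at 1.46, 0.79, 1.11 and 0.59 in WBIR, RCI, WBIR+MSC-EVs and RCI+MSC-EVs.

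**Figure D2:**
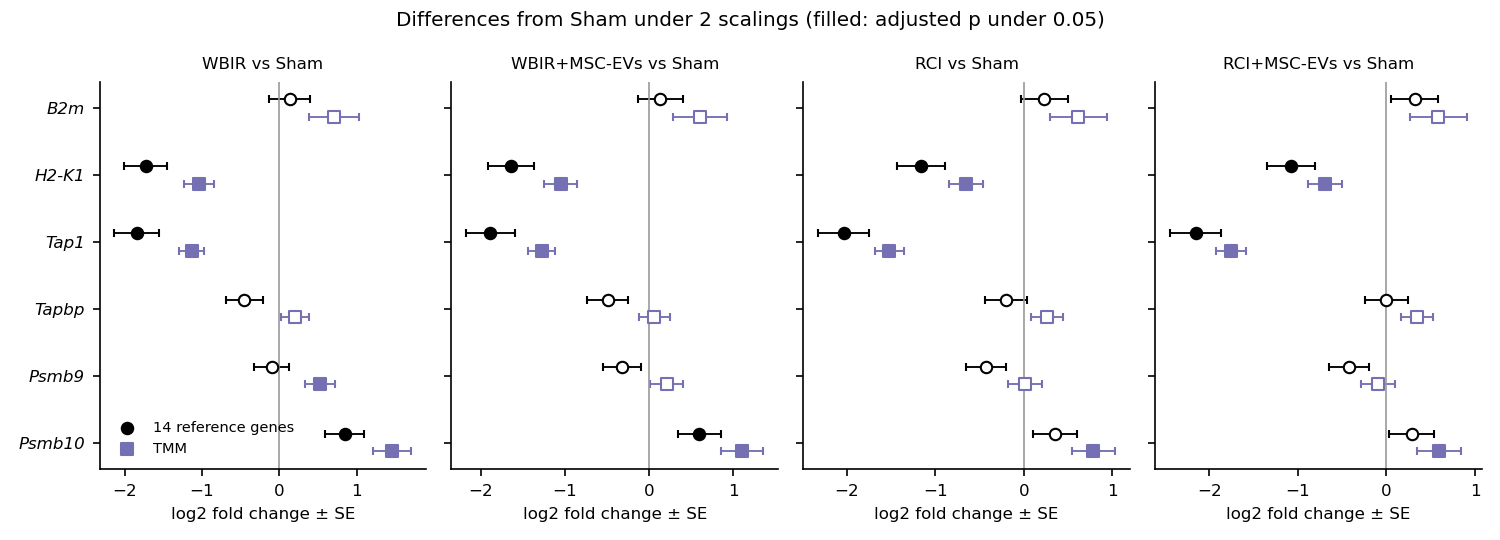
log2 fold changes against Sham with their standard errors (horizontal axis) of the 6 genes in the 4 injured groups, under reference gene scaling (circles) and TMM scaling (squares), filled where the edgeR adjusted p was under 0.05. H2-K1 and Tap1 lie below 0 under both scalings, Psmb10 lies above 0 under both, and Tapbp changes side with the scaling.

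Ratios of counts within a sample do not depend on the scaling, so pairs of genes were compared in this way, as log2 ratios between the 3 Sham and the 12 injured samples. The level of a ratio depends on both probes and only its differences between samples are read. Of 22 ratios tested, 3 were planned and 19 were added after the data were seen, among them the remaining pairs of the 6 genes, so that all 15 pairs were covered. The smallest p that this design allows is 0.0044, and p-values below are from two-sided exact permutation tests, adjusted over the 22. Of the 22 ratios, 10 had an adjusted p under 0.05, and of the 15 pairs among the 6 genes, which are not independent of each other, 9 did. The share among pairs of other panel genes was not computed, so these counts are not read as particular to the 6 genes. Taken singly, 65.3% to 69.5% of all genes were called against Sham by edgeR.

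Psmb9 and Tap1, whose starts lie 225 bases apart, moved unequally. The log2 ratio of Psmb9 to Tap1 was -1.53, -2.66 and -2.37 in Sham, -0.42, -0.49 and -0.64 in WBIR, -0.85, -0.59 and -0.67 in WBIR+MSC-EVs, -0.48, -0.83 and -0.64 in RCI, and -0.53, -0.58 and -0.46 in RCI+MSC-EVs. No injured sample reached down to the highest Sham sample. The ratio was 3.01-fold higher after injury, a log2 difference of 1.59 (exact permutation p = 0.0044, adjusted p = 0.00967). The 2 chains of the class I molecule moved unequally too. The log2 ratio of B2m to H2-K1 was 2.84, 1.53 and 2.70 in Sham and between 3.62 and 4.42 in the injured samples, 2.96-fold higher after injury (exact permutation p = 0.0044, adjusted p = 0.00967).

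Tap1 lost ground to each of the other genes of the set except H2-K1. Its log2 ratio to Tapbp changed by -1.62 and to Psmb10 by -2.48, and that of B2m to Tap1 by 2.11. H2-K1 changed by -1.07 relative to Tapbp, -1.04 relative to Psmb9 and -1.93 relative to Psmb10. For each of these 6 ratios, and for Psmb9 to Psmb10 at -0.89, no injured sample overlapped Sham and the exact permutation p was 0.0044. Tapbp to Psmb9 differed by 0.03 over all injured samples (exact permutation p = 0.87), a pooled value that joins -0.35 in WBIR and -0.19 in WBIR+MSC-EVs with 0.24 in RCI and 0.42 in RCI+MSC-EVs. H2-K1 to Tap1 differed by 0.55 over all injured samples (exact permutation p = 0.0571, adjusted p = 0.0698, or 0.044 without WBIR replicate 2), which likewise joins the burned and unburned groups described below.

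To set the immunoproteasome beside the constitutive enzyme, Psmb10 was compared with Psmb7, the subunit whose place it takes. Psmb7 rose, with scaled counts of 297, 366 and 442 in Sham, 661, 813 and 750.4 in WBIR, 695, 713 and 718 in WBIR+MSC-EVs, 873, 843 and 1079 in RCI, and 839, 885 and 1092 in RCI+MSC-EVs, and each injured sample was above each Sham sample. Its log2FC was 1.01 ± 0.20 (adjusted p = 0.000513) in WBIR and 1.34 ± 0.20 (adjusted p = 5.24e-05) in RCI by edgeR. The log2 ratio of Psmb10 to Psmb7 overlapped between Sham (0.16, -0.43 and -1.45) and the 12 injured samples (-2.09 to -0.26), with a difference of -0.60 (exact permutation p = 0.145, adjusted p = 0.168). That value rests on single Sham samples, being -1.04 without Sham replicate 3 and -0.24 without Sham replicate 1, and it joins -0.14 in WBIR and -0.31 in WBIR+MSC-EVs with -0.95 in RCI and -1.02 in RCI+MSC-EVs. Psmb9 was lower relative to Psmb5, a constitutive catalytic subunit that is the counterpart of Psmb8 and not of Psmb9, by 1.40 on the log2 scale, with no overlap (exact permutation p = 0.0044, adjusted p = 0.00967).

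A burn on top of radiation, together with the treatments that came with it, was examined next, as RCI against WBIR. None of the 6 genes was called, where 0.704% of all genes were, and none had an unadjusted p under 0.05, where 16.7% of all genes had. Under TMM scaling 3 of the 6, all lower in RCI, had an unadjusted p under 0.05 by edgeR (16.7% of all genes), which were Psmb10 at -0.67 ± 0.24 (adjusted p = 0.161), Psmb9 at -0.52 ± 0.19 (adjusted p = 0.169) and Tap1 at -0.39 ± 0.16 (adjusted p = 0.246), and none was called (0.235% of all genes). Scaled to the reference genes, by edgeR, H2-K1 was at 0.56 ± 0.27 (adjusted p = 0.318) and Psmb10 at -0.49 ± 0.25 (adjusted p = 0.348). With the EV-treated groups added, so that 6 burned samples stood against 6 unburned ones, again none was called by edgeR (3.05% of all genes were) and 3 had an unadjusted p under 0.05 (25.8% of all genes). By edgeR these were H2-K1 at 0.57 ± 0.19 (adjusted p = 0.081), Psmb10 at -0.40 ± 0.18 (adjusted p = 0.173) and Tapbp at 0.37 ± 0.17 (adjusted p = 0.188). Under TMM scaling 4 of the 6 had an unadjusted p under 0.05 (24.4% of all genes), which were H2-K1 (higher), Tap1, Psmb9 and Psmb10 (lower), and 1 was called (6.57% of all genes). Other settings called 1 gene of the set, which was H2-K1 with DESeq2 (adjusted p = 0.0274) and with edgeR without Sham replicate 2 (adjusted p = 0.0273), and Tap1 with TMM scaling, at -0.43 (edgeR adjusted p = 0.0442).

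Within samples, several ratios of the class I genes differed between the burned and the unburned samples. The log2 ratio of H2-K1 to Tap1 was 1.60, 1.28 and 1.29 in Sham, 1.58, 1.27 and 1.55 in WBIR and 1.38, 1.63 and 1.76 in WBIR+MSC-EVs, against 2.26, 2.11 and 2.37 in RCI and 2.27, 2.50 and 2.55 in RCI+MSC-EVs. The 6 burned samples were all above the 9 others, and the unburned samples overlapped Sham. The difference between the 6 burned and 6 unburned injured samples was 0.82, or 1.76-fold (exact permutation p = 0.00216, the smallest that 6 against 6 allows, adjusted p = 0.00433 over the 22 ratios). It was 0.78 between RCI and WBIR and 0.85 between the EV-treated groups, with no overlap in either, although 3 against 3 cannot go below an exact permutation p of 0.1. This family of tests was added after the data were seen, and 15 of its 22 ratios had an adjusted p under 0.05, 11 of them without overlap. The share among pairs of other panel genes was not computed here either, so these counts are not read as particular to the class I genes. For the burn averaged over EV treatment, 25.8% of all genes had an unadjusted p under 0.05 by edgeR.

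Relative to H2-K1, B2m was lower in the burned samples by 0.43 on the log2 scale, at 3.62 to 3.78 against 3.90 to 4.42. The ratio of H2-K1 to Psmb9 was higher by 0.79 and that of H2-K1 to Psmb10 by 0.97. Psmb10 was lower in the burned samples relative to both constitutive subunits, by 0.76 against Psmb7 and by 0.88 against Psmb5, and Psmb9 was lower relative to Psmb5 by 0.71. Tapbp was higher relative to Psmb9 by 0.60. Each of these 7 ratios was without overlap and had the same exact permutation p of 0.00216, and each kept that separation when any 1 of the 12 samples, RCI replicate 3 included, was left out. Psmb9 to Tap1 differed by 0.02 (exact permutation p = 0.797).

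**Figure D3:**
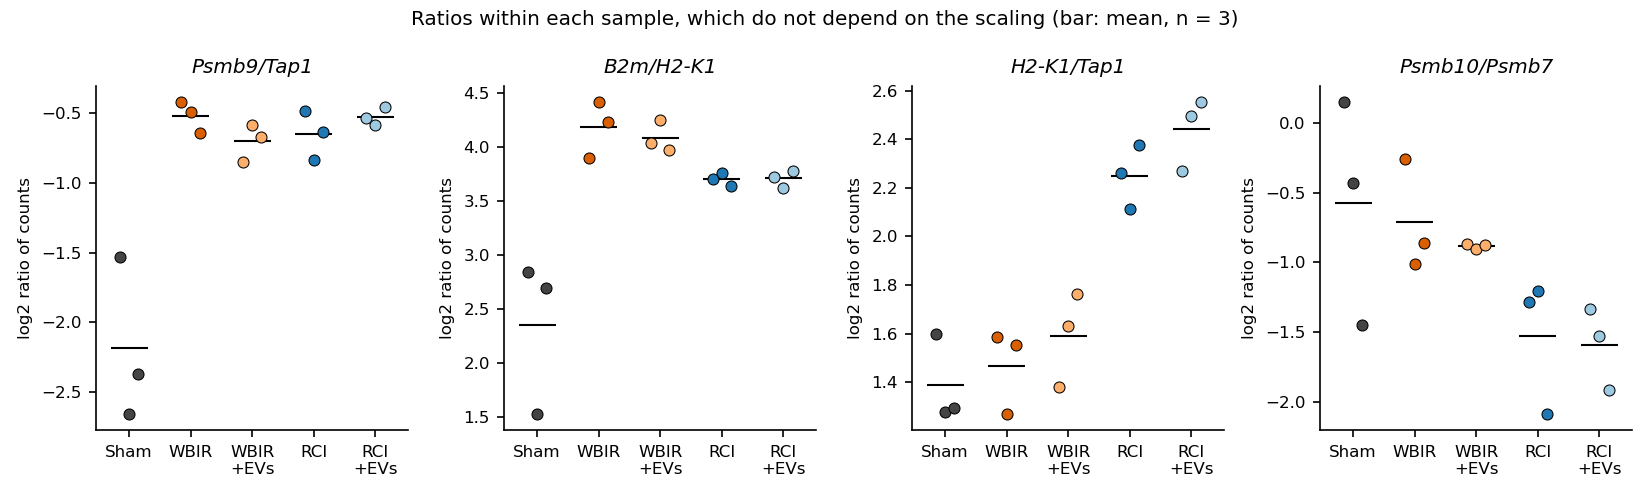
log2 ratios of counts within each sample (vertical axes, which do not start at 0) for 4 pairs of genes, by group, with the mean of each group of 3. Psmb9/Tap1 and B2m/H2-K1 are higher in the 12 injured samples than in Sham, H2-K1/Tap1 is highest in the 6 burned samples, and Psmb10/Psmb7 is lower in them than in the 6 unburned injured samples.

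To ask whether MSC-EVs moved the class I genes after injury, treated and untreated mice of the same injury were compared. None of the 6 genes was called by edgeR in WBIR or in RCI, and none had an unadjusted p under 0.05. Over all genes 0% were called in both, with 2.58% at an unadjusted p under 0.05 in WBIR and 3.29% in RCI. The log2FC ran from -0.25 (Psmb10) to 0.08 (H2-K1) in WBIR, and from -0.11 (Tap1) to 0.20 (Tapbp) in RCI. DESeq2 and limma called none of the 6 either.

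Averaged over both injuries, the EV difference was 0.09 for H2-K1 (95% interval -0.32 to 0.49), 0.05 for B2m (-0.36 to 0.45) and -0.08 for Tap1 (-0.50 to 0.35). It was 0.08 for Tapbp (-0.28 to 0.45), -0.10 for Psmb9 (-0.45 to 0.24) and -0.16 for Psmb10 (-0.54 to 0.22). The smallest unadjusted p among them by edgeR was 0.388, and 0% of all genes were called, with 3.29% at an unadjusted p under 0.05. These intervals leave room for changes of up to about 0.54 on the log2 scale, so the data do not show that MSC-EVs left these genes as they were. The EV effects of the 2 injuries differed by -0.07 to 0.24, with none called (0% of all genes, and 2.58% at an unadjusted p under 0.05). Of the 22 ratios none separated treated from untreated samples, and the smallest exact permutation p was 0.372 (adjusted p = 0.952).

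The other genes of the pathway were taken from lists and are described by counts, with log2FC values given first for WBIR and then for RCI, both against Sham. Of 4 constitutive proteasome genes tested, all 4 rose in WBIR and in RCI, and in each EV-treated group against Sham. Psmb5 was at 0.87 and 1.40, Psmb7 as above, Psmd7, a subunit of the regulatory cap, at 0.66 and 0.86, and Psmc2, an ATPase of that cap, at 0.60 and 0.97. The median of the list was 0.76 in WBIR and 1.16 in RCI. Of 4 other class I or class I-like genes, Fcgrt, the heavy chain of the neonatal Fc receptor, which also pairs with beta-2 microglobulin, rose, at 2.32 and 2.11. H2-Q10, a secreted class I heavy chain with close relatives on the chromosome, fell, at -2.90 and -3.85, from Sham counts that were themselves spread, at 50.9, 412 and 104 in Sham, and to raw counts of only 7 to 29 in WBIR and 10 to 18 in RCI, where counting error is not small. Mr1, which presents microbial metabolites to MAIT cells, rose in WBIR (1.01) and was at 0.69 in RCI without a call, and Cd1d1, which presents lipids to NKT cells, was called in neither.

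Most class II presentation genes fell. Of 9 tested, 7 were lower and 1 higher in WBIR and 8 lower and 1 higher in RCI, with medians of -2.83 and -2.96. Ciita, the coactivator that switches class II genes on, was at -3.76 and -3.96, and H2-Ob, a class II chain that tunes peptide exchange in B cells, at -5.56 and -4.79. Ctss, a lysosomal protease that trims the invariant chain, was the one that rose, at 1.53 and 1.93, and H2-DMa was the one called only in RCI, at -0.96 and -0.98 with an edgeR adjusted p of 0.0517 in WBIR. The log2 ratios of H2-K1 to the class II chains H2-Aa, H2-Ab1 and H2-Eb1 and to the invariant chain Cd74 were higher after injury by 1.49, 1.08, 1.16 and 1.28. None reached an adjusted p under 0.05 by the exact permutation test (0.0527 to 0.0626), and all 4 did without Sham replicate 2 (adjusted p = 0.0345 each). They moved with single Sham samples, to 1.03, 0.71, 0.70 and 0.66 without Sham replicate 1 and to 2.29, 1.60, 1.71 and 2.13 without Sham replicate 2, with none passing in the first case (exact permutation, adjusted p = 0.193 to 0.28).

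**Figure D4:**
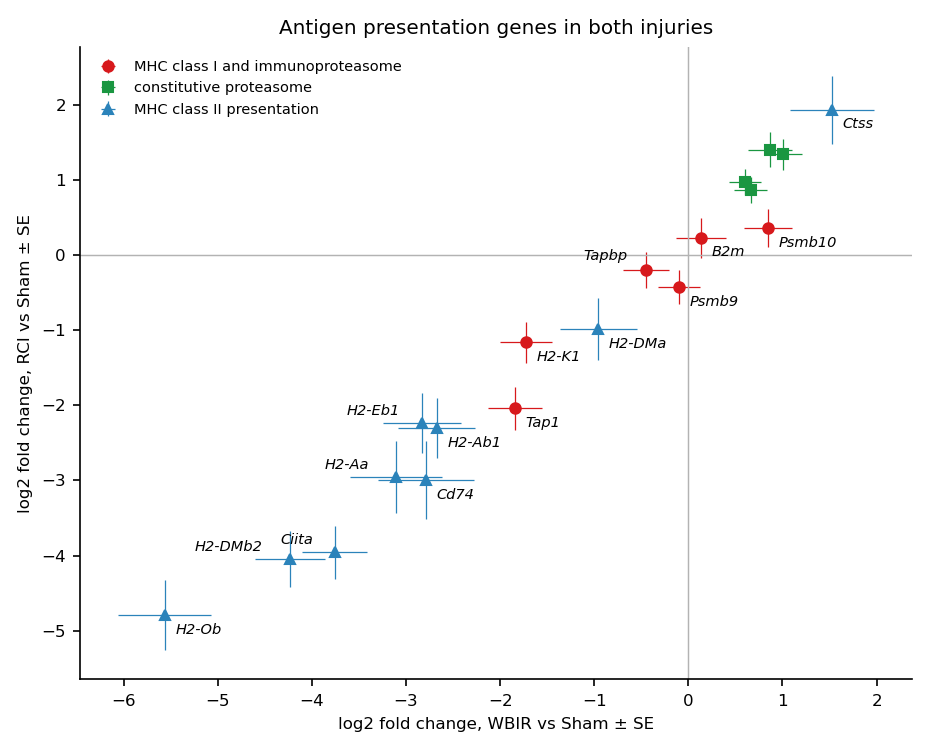
log2 fold changes against Sham in WBIR (horizontal) and in RCI (vertical) with standard errors, for the 6 class I and immunoproteasome genes (circles), 4 constitutive proteasome genes (squares) and 9 class II presentation genes (triangles). The class I and immunoproteasome genes run from Tap1 (-1.85 in WBIR) to Psmb10 (0.84), the constitutive proteasome genes all lie above 0, and of the class II genes Ctss alone does; both axes share the Sham samples.

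Interferon drives class I and immunoproteasome genes, so the genes of its signalling were counted too. Of 14 tested, 2 rose and 4 fell in WBIR, and 3 rose and 4 fell in RCI (5 and 4, and 4 and 4, under TMM). Irf7, a transcription factor of the type I interferon response, was at 2.10 and 2.33. Irf3, Jak2, Jak1 and Ifnar1 fell, with Irf3 at -2.23 and -1.65 and Jak1 at -1.38 and -1.77. Socs1, the feedback inhibitor of this signalling, was called in RCI (0.64) and not in WBIR (-0.14), and Irf1, an activator of class I genes, was called in neither (-0.25 and -0.44). Of a list of T and NK cell receptors for class I and their relatives, 10 genes were tested, of which the CD8 chains Cd8a (-3.86 and -4.11) and Cd8b1 (-4.00 and -3.78) fell, the inhibitory receptors Lilrb3, which binds class I (1.47 and 2.13) and Lilrb4, a relative not established as a class I receptor (2.62 and 3.32), rose, and 6, the NK cell receptors Klrc1, Klrc2, Klra4, Klra7 and Klra8 and the receptor Cd160, were not called in either injury.

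Cell type markers moved with these results, B and T cell markers being plentiful in Sham spleens. The summed scaled count of 8 B cell markers was 17728 to 19774 in Sham and 755 to 1645 in the injured samples, and all 8 were called lower in WBIR and RCI. That of 8 T cell markers was 6893 to 15680.0 against 1748 to 3808, with all 8 called lower in both. That of 7 macrophage markers was 2772 to 6289 against 20140.2 to 42272, with 6 called higher in WBIR and 7 in RCI. Neutrophil markers summed to 7845 to 44392 against 1452 to 10085, with 4 of 5 tested called lower, and 5 tested NK cell markers to 1316 to 4497 against 423 to 1807, with 1 higher and 1 lower in WBIR and 1 higher and 3 lower in RCI. For endothelial and stromal markers the sums were 2586 to 3216 and 2638 to 7548, and for dendritic cell markers 113 to 409 and 306 to 527. No marker of these lists was at 3 counts or fewer throughout a group. The part of these shifts in the changes of H2-K1, Tap1 and Psmb10 was not tested.

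Last, the genes whose pattern was most like that of the 6 together were sought, by the Pearson correlation of log2 scaled counts with the mean of the 6 standardised genes over the 15 samples, as a description. Under reference gene scaling these were Irf1 (0.856), Tgfbr2 (0.852), Cd97 (0.836), Irak1 (0.835) and Cd4 (0.817), and under TMM they were Stat2 (0.754), Irf8 (0.645), Irak1 (0.626), H2-DMa (0.563) and Vcam1 (0.557). Irak1 was on both lists. The samples share their scaling factors, and the mean described the 6 genes unevenly: under reference gene scaling Psmb9 itself stood at 0.841 with it and Psmb10 at 0.0373. Under TMM, Psmb9 stood at 0.831 with the mean, while Tap1 was at -0.0484 and H2-K1 at -0.182.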

How the data were processed

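Raw barcode counts of 561 genes, 14 of them reference genes, were deposited by the authors as a table with a column for each of the 15 samples. Per the study's methods, RNA was hybridised on the nCounter platform and normalised in nSolver, a step that the deposited counts precede. Samples were grouped by their labels. Counts were divided by the geometric mean of the 14 reference genes of each sample, relative to its mean over samples, as the offset of edgeR 4.0.16 in R 4.3.3. One robust quasi-likelihood fit held all 15 samples and, of 547 endogenous genes, the 426 that averaged 20 counts or more. Genes with an adjusted p under 0.05 (Benjamini-Hochberg, within a comparison) are called. Samples of a group varied by 33.1% (the square root of the common dispersion, 0.110). Totals of 90127 to 598872 counts, with a median of 360995, leave counting error small for the 6 genes; RNA counts of a hybridisation assay also carry probe efficiency, so levels of different genes are not compared.

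Alternatives were TMM, median-of-ratios and 7-gene scaling, DESeq2 1.42.0, limma 3.58.1 on log2(count + 10), no filter, an average of 50 counts or more, only the groups compared, the replicate number as a block, and leaving out each sample. Exact permutation tests of within-sample ratios used SciPy 1.17.1 and pandas 2.3.3 under Python 3.11.15. Scripts were tested on simulated data. The genes named are all 6 members, the called genes of each pathway list with the largest rise and fall, other list genes added after their values were seen, and for likeness the 5 genes with the highest correlation. The members and lists were chosen with earlier results of these data known. Gene positions and promoters are from RefSeq tables of GRCm38.p6, in which all 6 genes matched. One gene of the interferon list is not reported here by name.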

Additional observations from a re-analysis of the deposited data

How the results depend on the processing

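The falls of H2-K1 and Tap1 against Sham kept their direction and their call under all alternatives, and so did the rise of Psmb10 in WBIR, while its call in WBIR+MSC-EVs was lost under 15 of 24. Over the fold changes of the 6 genes, 952 alternative values kept direction and side of the threshold, 39 changed sign, 14 gained a call and 15 lost one. Tapbp changed sign under TMM and under median-of-ratios scaling, to 0.21 and 0.22 in WBIR, 0.26 and 0.28 in RCI, 0.062 and 0.087 in WBIR+MSC-EVs, and 0.34 and 0.33 in RCI+MSC-EVs. In RCI+MSC-EVs, where it was near 0, it was also above 0 with DESeq2 (0.0016), limma (0.011) and the replicate block (0.010), and ran from -0.13 to 0.19 when single samples were left out; in RCI it was 0.17 without Sham replicate 2 and RCI replicate 3 together, an alternative chosen after seeing the data. Psmb9 changed sign under the same scalings, to 0.53 and 0.53 in WBIR, 0.012 and 0.023 in RCI, and 0.21 and 0.22 in WBIR+MSC-EVs. The scalings differ in the genes that set them, and the cause was not tested.

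For RCI against WBIR, 3 genes of all tested were called, against 1 with TMM, 1 with median-of-ratios scaling, 28 with DESeq2, 0 with only the groups compared, and 1 to 15 when single samples were left out. B2m there changed sign to -0.089, -0.081 and -0.20 with TMM, median-of-ratios and 7-gene scaling and ran from -0.0092 to 0.27 over the left-out samples, Tapbp was at -0.047 with 7-gene scaling, and Tap1 ran from -0.32 to 0.0094 over the left-out samples. For the burn averaged over EV treatment, 13 genes were called, against 28 with TMM, 26 with median-of-ratios, 4 with 7-gene scaling, 68 with DESeq2, 76 with only the groups compared, and 2 to 79 over the left-out samples; of the 6 genes, 1 was called with TMM, median-of-ratios, DESeq2 and only the groups compared, and 0 to 1 over the left-out samples. B2m there was at -0.053, -0.070 and -0.096 with TMM, median-of-ratios and 7-gene scaling. For the EV effect averaged over injuries, DESeq2 called 1 gene, which is none of the 6, and with TMM and median-of-ratios scaling B2m was at -0.065 and -0.076, H2-K1 at -0.028 and -0.037, and Tapbp at -0.033 and -0.043. Over the left-out samples B2m ran from -0.042 to 0.11 there and Tapbp from -0.011 to 0.16. The log2 ratio of Tapbp to Psmb9 between injured and Sham samples ran from -0.18 to 0.16 and that of Psmb9 to Tap1 between burned and unburned samples from -0.026 to 0.071 over the left-out samples; the cause was not tested in any of these.

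Groups share replicate numbers, and 11 of 30 same-numbered pairs of samples deviated together with a correlation over 0.1 (median 0.0072, range -0.49 to 0.68). The samples were therefore not treated as paired, although this check cannot exclude a pairing or a shared run for some of them. With the replicate number as a block, 288 genes were called in WBIR and 291 in RCI against Sham, beside 292 and 296 without it, and the number of the 6 genes called was the same in every comparison. With 3 samples a group, the precision of each comparison is limited by the spread between samples more than by counting, and Sham replicate 2 carries much of that spread for H2-K1 and Tap1.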
